A study of Mus musculus with 18 samples.

Results

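The genes of the nuclear pore and of nuclear transport were followed through early mouse embryos with the enzyme Echs1 knocked down, or treated with crotonate. Members were every gene whose symbol starts with Nup, Xpo, Ipo or Tnpo followed by a number (or is Xpot), or with Kpna or Kpnb, together with Ran, Rangap1, Ranbp1 and Ranbp2. Of the 55335 genes listed for each library, 49 matched, and 48 were kept after 1 symbol carrying the pseudogene suffix -ps was left out. They hold 6 subunits of the Y complex and 5 of the inner ring of the pore scaffold, 2 genes of the membrane ring, 4 of the central channel, 2 of the nuclear side, 3 of the cytoplasmic side, 6 importin alpha genes, 11 of the importin beta family, 6 exportins and 3 genes of the Ran cycle.

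The nuclear pore is a ring of scaffold proteins set in the nuclear envelope, whose channel is filled with disordered repeats of phenylalanine and glycine that slow large molecules down. Importins and exportins bind a cargo and those repeats and so carry the cargo through, and the small GTPase Ran, kept bound to GTP in the nucleus and to GDP in the cytoplasm, sets the direction. A mouse embryo starts out with pores, receptors and mRNAs stored in the egg and makes its own transcripts from the zygote and 2-cell stages on, while many of the stored mRNAs are broken down.

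RNA of pools of embryos was sequenced in 18 libraries with Smart-seq2, a protocol that copies poly(A) RNA over its full length, from 5 to 10 embryos a tube. The siRNA experiment has 4 groups of 3 libraries: siCon or siEchs1 embryos, taken at a stage labelled E2C or at one labelled L2C. Echs1 is the mitochondrial enoyl-CoA hydratase that acts on crotonyl-CoA, the donor of histone crotonylation, the subject of the series. In the treatment experiment, zygotes of the genotype WT received DMSO, sodium acetate or sodium crotonate and were harvested at the early 2-cell stage (E2C), which gave 3 groups of 2 libraries. The labels give no strain and no dose, do not spell out L2C, and do not say what the siCon siRNA targets or when siRNA was given. They do not state whether replicates came from separate matings or cultures either. The p-values therefore set differences between groups against the spread of these libraries within groups, and that spread could be technical.

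Echs1 itself was at 27.5 to 32.5 FPKM (fragments scaled to gene length and to mapped fragments) in siCon E2C and 24.4 to 39.2 in siCon L2C, against 0.71 to 5.88 in siEchs1 E2C and 0.89 to 4.32 in siEchs1 L2C. Depth is unknown, since the values are normalized and hold no counts, and 12037 to 16703 genes reached 1 FPKM in a library. Library siEchs1 E2C replicate 3 stood apart: its Spearman correlations across genes with replicates 1 and 2 of its group were 0.667 and 0.718, against 0.9 between those. Summed over 20 oocyte genes, levels ran from 12132 to 13141 FPKM in siCon E2C, 7181 (replicate 3) to 22568 in siEchs1 E2C, 2530 to 3498 in siCon L2C and 21007 to 27576 in siEchs1 L2C. The oocyte genes differed in direction at E2C: Oosp1 was at 6525 to 7506 FPKM in siCon against 2263 to 3475 in siEchs1, and Oog1 at 3564 to 4191 against 950 to 1709. Zp3 was at 28.0 to 36.7 FPKM in siCon against 3071, 3622 and 35.9 in siEchs1 replicates 1 to 3. The sum over 14 measured 2-cell genes ran from 2251 to 2472, 841 to 1593, 1843 to 2203 and 304 to 494 FPKM in the same order. The oocyte sums of siEchs1 L2C overlapped those of siEchs1 E2C and lay above all siCon sums, and its 2-cell sums lay below those of the other siRNA groups. The 2-cell genes differed in direction too: Tcstv1 was at 86.96, 94.8 and 118.7 FPKM in siCon L2C against 146, 208 and 175 in siEchs1 L2C. The part of these differences in the results below was not tested. Mitochondrial transcripts made up 13.1 to 17.0% of the total in siCon E2C, 1.69 to 10.3% in siEchs1 E2C, 7.58 to 11.2% in siCon L2C and 0.831 to 2.27% in siEchs1 L2C. Among the other cell types a tube could hold, the summed markers of cumulus and granulosa cells (15 genes) were at 100.6 to 148.7 FPKM in siCon L2C against 8.51 to 18.9 in the other siRNA groups, those of oviduct epithelium (9 genes) at 239 to 369 against 22.5 to 76.0, and those of blood (8 genes) at 93.2 to 125.6 against 2.74 to 77.8. Few genes carried these sums in siCon L2C: Amhr2 alone was at 91.75 to 145.3 FPKM, 1 of the 15 cumulus and granulosa genes reached 1 FPKM in every siCon L2C library against 2 in siEchs1 L2C, and none was at 0 throughout either group. The oviduct sum rested mostly on Epcam (91.96 to 176.5) and Cd24a (82.5 to 158.7). Ovgp1, Foxj1 and Wfdc2 were at most at 2.0, 1.55 and 3.36 and Pax8 at 0. Cdh1 was at 27.6, 18.8 and 15.5 FPKM there, against 1.97 to 3.21 in siCon E2C and 26.4 to 39.4 in siEchs1 L2C. In siEchs1 E2C it was at 9.17 to 22.3. Krt18 was at 28.7, 14.8 and 0.6 in siCon L2C, against 0.19 to 8.81 in siEchs1 L2C and at most 1.15 at E2C. Krt8 was at 4.37, 1.56 and 0.54 in siCon L2C against 2.11 to 16.6 in siEchs1 L2C. The blood sum rested on Hba-a1 (70.9 to 104.1) and Hba-a2 (18.3 to 19.96). Sperm and testis markers (12 genes) summed to 59.8 to 260.1 FPKM over the siRNA groups. In the treatment experiment these 4 sums were at most 8.16, 36.2, 13.8 and 83.4 FPKM. Since each library is a pool scaled to its own total, fewer cells of a type and less RNA per cell cannot be told apart.

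In siCon E2C, 46 of the 48 members averaged at least 1 FPKM, and the highest were Kpna2, Nup214, Kpna3, Nup153, Nup37 and Nup35. Levels summed over the members were 1797 to 1840 FPKM in the siCon E2C libraries, 2124 to 2475 in siEchs1 E2C, 2162 to 3073 in siCon L2C and 2150 to 2516 in siEchs1 L2C. A similar total hid a different make-up. The highest members in siCon L2C were Kpna2 and Nup62, while in siEchs1 L2C they were Kpna2 and Kpna7, and the median member stood at 33.2 FPKM in siCon L2C against 14.1 in siEchs1 L2C. In the treatment experiment the sums were 2668 and 2700 FPKM with DMSO, 1762 and 2610 with acetate and 1628 and 1591 with crotonate.

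**Figure D1:**
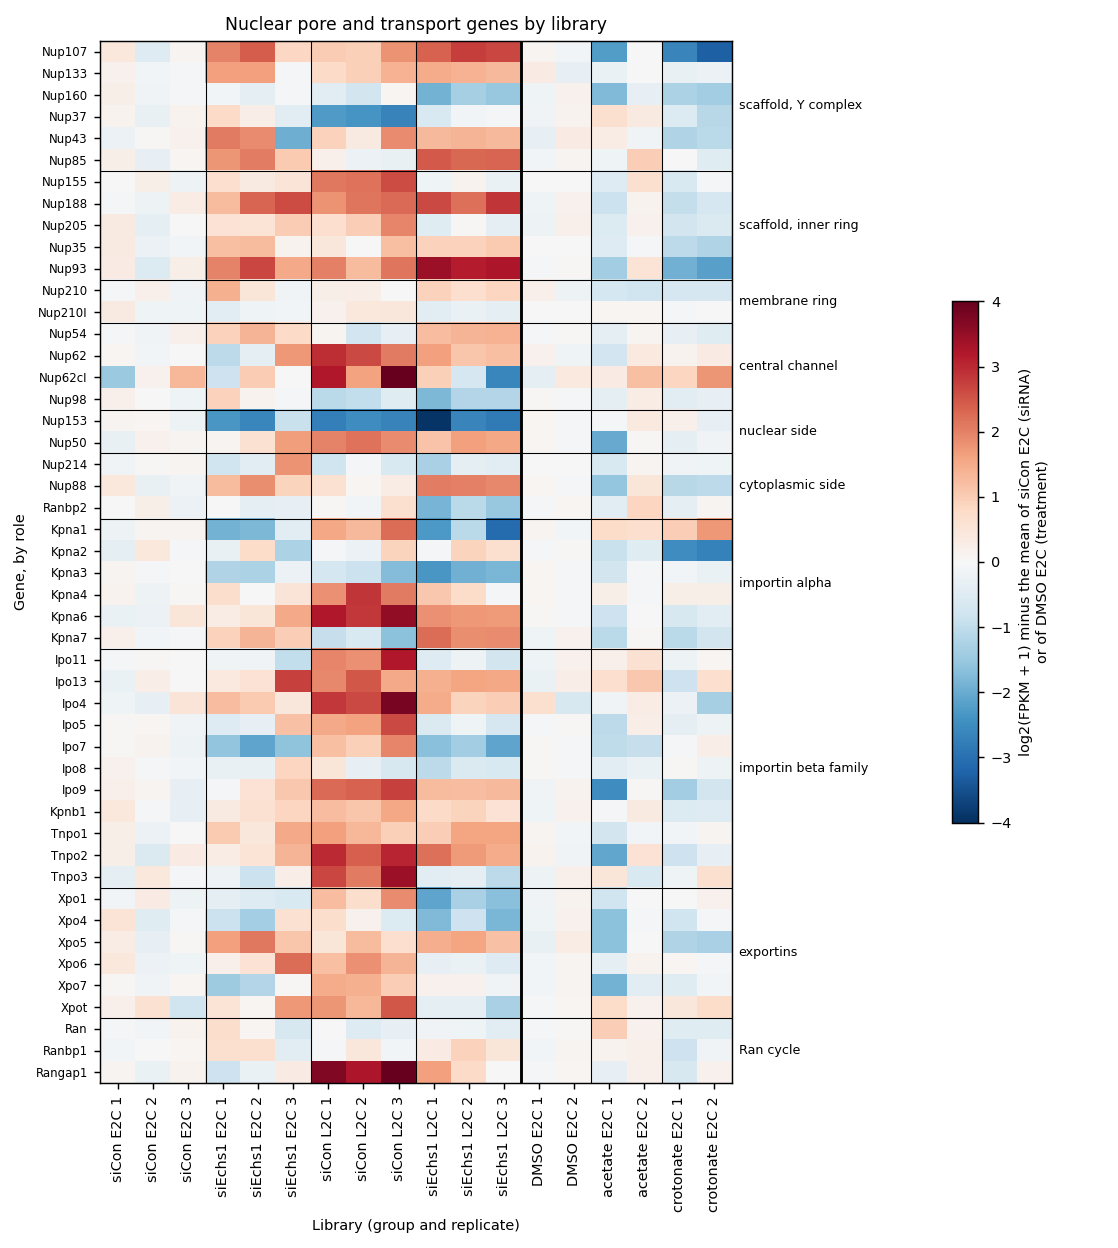
Level of each of the 48 genes (vertical axis, grouped by role) in each of the 18 libraries (horizontal axis), as log2(FPKM + 1) minus the mean of siCon E2C for the siRNA libraries or of DMSO E2C for the treatment libraries; red is higher, blue is lower, and colours saturate at 4 in either direction. Tnpo3, Ipo4, Ipo11 and Rangap1 are red in the 3 siCon L2C libraries and paler or blue in the 3 siEchs1 L2C libraries, while Nup85, Nup93 and Kpna7 are red in siEchs1 L2C, and column siEchs1 E2C 3 differs from the 2 columns beside it.

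Between E2C and L2C in siCon embryos, most transport receptors rose. Of the 47 members with enough signal to be tested, 26 were higher at L2C and 4 lower (limma on log2(FPKM + 1), Benjamini-Hochberg adjusted p under 0.05 over all 17652 genes tested), when 35.8% of all genes were higher and 14.4% lower. The median member changed by 1.27 on the log2 scale and the median gene by 0.51. By role, 10 of 11 importin beta genes, 4 of 6 exportins, 4 of 5 inner-ring genes, 3 of 6 importin alpha genes and 2 of 4 channel genes were higher, and Kpna3, Kpna7, Nup153 and Nup37 were the members that fell. After quantile normalization, which gives all libraries the same distribution and brings the median gene to -0.01, the split was 15 higher and 8 lower and the median member stood at 0.66, with 6 of 11 importin beta genes and 0 of 6 exportins past the test. When siCon E2C replicate 1 was left out, 2 members were lower. Of the 30 calls, 16 held under each of the 18 alternative settings tried. The call of Kpna3 (-1.10, adjusted p = 0.0243) was lost without siCon E2C replicate 1 (0.0704), 2 (0.0531) or 3 (0.0608) or siCon L2C replicate 3 (0.0965), and after rescaling without mitochondrial and ribosomal RNA (0.158).

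From E2C to L2C in siEchs1 embryos, 0 members were higher and 4 were lower by limma, against 11.8% and 2.73% of all genes, and at an unadjusted p under 0.05 the counts were 8 and 9. The median member changed by 0.10 and the median gene by 0.23. The lower members were Nup98, Nup160, Ranbp2 and Xpo1, with log2 changes of -1.70, -1.40, -1.25 and -1.21 (adjusted p from 0.00646 to 0.0379), and a fit of these 6 libraries alone called 0 of them. The call of Xpo1 was lost under 13 of the 18 settings tried, with adjusted p from 0.0514 (without siEchs1 L2C replicate 2) to 0.154 (without siEchs1 L2C replicate 1). Ranbp2 was lost without siEchs1 E2C replicate 1 (0.0723) or siEchs1 L2C replicate 1 (0.112) or 3 (0.0714), and Nup160 without siEchs1 L2C replicate 1 (0.052). Rescaling without mitochondrial and ribosomal RNA gave 1 higher and 3 lower, and leaving out siEchs1 E2C replicate 3 gave 8 higher. Leaving out siEchs1 L2C replicate 1 or replicate 3 gave 1 and 2 lower, and leaving out siEchs1 E2C replicate 2 or siCon L2C replicate 3 gave 1 higher each.

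In embryos given siEchs1, most receptor genes were low at L2C. There, 7 members were higher and 22 lower in siEchs1 than in siCon, against 21.9% and 26.9% of all genes, with a median member at -0.73 and a median gene at -0.08. Lower were 7 of 11 importin beta genes, 5 of 6 exportins, 3 of 6 importin alpha genes, Rangap1, Ranbp2, Nup155, Nup160, Nup205, Nup210l and Nup62cl. Higher were Nup37, Nup85 and Nup107 of the Y complex, Nup93, Nup54, Nup88 and Kpna7. Of these 29 calls, 24 held under each of the 18 alternative settings tried. The comparison uses the same siCon L2C libraries as the comparison of L2C with E2C, so their directions are not independent of each other.

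At E2C fewer members differed. In siEchs1, 8 were higher and 2 lower than in siCon, against 11% and 9.31% of all genes, with a median member at 0.42 and a median gene at 0.15. Higher were Nup85, Nup107, Nup93, Nup188, Nup54, Nup88, Kpna7 and Xpo5, and Ipo7 and Nup153 were lower. Quantile normalization gave 6 higher and 3 lower, and a fit of the 6 E2C libraries alone gave 2 and 1. Of the 10 calls, 3 (Ipo7, Nup188 and Nup93) held under each of the 18 alternative settings. That fit alone lost the other 7. Their adjusted p was 0.0513 (Nup85), 0.054 (Xpo5), 0.0612 (Nup153), 0.0742 (Kpna7), 0.0808 (Nup107), 0.0816 (Nup88) and 0.0973 (Nup54). Without siEchs1 E2C replicate 3, the library that stood apart, 12 members were higher and 5 lower (25.53% and 10.64%). The shares of all genes were then 22.95% and 13.85%. Newly called were Ipo4, Nup35, Nup43 and Nup133 as higher and Kpna1, Kpna3 and Xpo7 as lower. Leaving out siEchs1 E2C replicate 2 gave 5 and 1, and leaving out siCon E2C replicate 2 or replicate 3 gave 4 and 5 higher.

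Replicate 3 of siEchs1 E2C lay on the other side of siCon from its 2 companions for several members. Nup214, which binds Xpo1 on the cytoplasmic face, was at 111, 145.5 and 673 FPKM in siEchs1 E2C against 176, 203 and 208 in siCon E2C. Nup43, a Y complex subunit, was at 186, 164 and 10.5 FPKM against 37.1, 45.3 and 48.9. In all, 6 members (Ipo5, Ipo8, Nup62, Nup214, Rangap1 and Xpo4) were below every siCon E2C library in replicates 1 and 2 and above them in replicate 3, and 3 members (Nup37, Nup43 and Ranbp1) were the reverse. The same count was not made over all genes, so it cannot be told whether the members stand out in this.

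The siEchs1 effect differed between the 2 stages for 17 members by the test of the difference itself. At L2C minus at E2C, 2 members were more positive and 15 more negative, against 5.65% and 11.6% of all genes, and the median member stood at -1.03 and the median gene at -0.21. The 5 with the smallest adjusted p were Nup155 (-2.90, SE 0.42), Ipo4 (-2.88, SE 0.55), Tnpo3 (-3.07, SE 0.59), Xpo1 (-2.48, SE 0.50) and Xpot (-3.32, SE 0.73), with adjusted p from 0.00265 to 0.0124, and Kpna7 and Nup37 were the 2 positive ones. Without siEchs1 L2C replicate 3 the counts were 1 and 8.

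**Figure D2:**
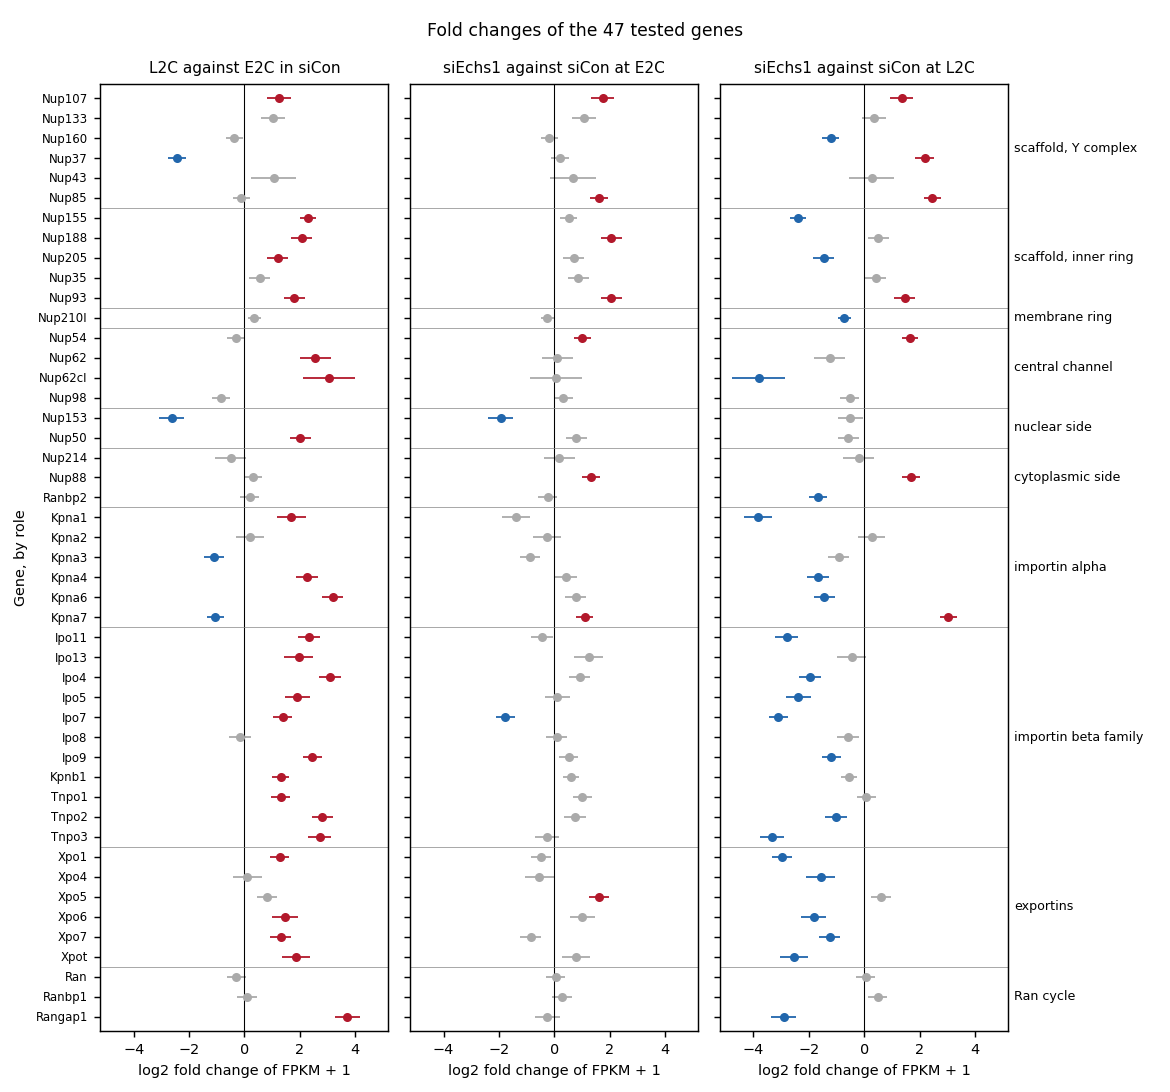
Log2 fold change of FPKM + 1 (horizontal axis) for the 47 tested genes (vertical axis, grouped by role) in 3 comparisons of the siRNA experiment; points are limma estimates, bars are 1 SE to either side, red and blue mark genes called higher and lower, and grey marks genes not called. Importin beta genes and exportins lie mostly to the right of 0 for L2C against E2C in siCon and to the left for siEchs1 against siCon at L2C, where Kpna7, Nup85 and Nup37 lie farthest to the right.

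Promoter sequence was looked at for members with opposite patterns, chosen after their values had been seen. The RefSeq promoter table (build GRCm38.p6) holds 39 of the 48 members, and the 150 bases before the annotated start were searched on both strands. Shown are Kpna7 and Nup93, higher in siEchs1 L2C, Xpo1, lower there, and Kpna2, which fell with crotonate. Each is given 5′ to 3′ on the gene's strand, and capitals mark matches to any motif searched.
Kpna7, chr5:145009637-145009786, minus strand: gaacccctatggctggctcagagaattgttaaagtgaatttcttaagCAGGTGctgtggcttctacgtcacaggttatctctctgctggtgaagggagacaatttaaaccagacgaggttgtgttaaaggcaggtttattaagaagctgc
Nup93, chr8:94214414-94214563, plus strand: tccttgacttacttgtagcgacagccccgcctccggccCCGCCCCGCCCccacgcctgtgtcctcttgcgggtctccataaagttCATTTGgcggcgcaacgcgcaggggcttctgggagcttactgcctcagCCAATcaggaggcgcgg
Xpo1, chr11:23255891-23256040, plus strand: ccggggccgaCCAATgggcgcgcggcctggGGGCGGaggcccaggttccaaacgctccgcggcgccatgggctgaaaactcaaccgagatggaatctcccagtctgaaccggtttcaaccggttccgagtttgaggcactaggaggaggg
Kpna2, chr11:106999526-106999675, minus strand: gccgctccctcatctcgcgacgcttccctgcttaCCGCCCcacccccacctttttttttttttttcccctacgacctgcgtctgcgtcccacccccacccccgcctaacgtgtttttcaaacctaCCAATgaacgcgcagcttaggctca
The motifs were the E-box CANNTG, the TATA box TATAAA, the CCAAT box, the GC box GGGCGG, the NRF1 core GCGCATGCG and the ETS core CCGGAAG. Matches could overlap, as 2 GC boxes do in Nup93. The Kpna7 window held 1 match, an E-box, and those of Xpo1 and Kpna2 held a CCAAT box and a GC box each. The Kpna7 window lies inside the interval that the GENCODE M21 annotation gives the gene (chr5:144983519-145084030, minus strand). RefSeq and GENCODE thus place the start of Kpna7 differently, and the bases before the GENCODE start are not shown. A gene with several annotated starts has several windows and was counted if any of them held the motif. Nup93 has another window, not shown (chr8:94266697-94266846), with a TATA box and a CCAAT box, and counts for the TATA box only through it. Among the 39 members with a window, 33.3% held an E-box, 7.69% a TATA box, 43.6% a CCAAT box, 56.4% a GC box, 10.3% an NRF1 core and 15.4% an ETS core. The same shares over 27025 genes with a promoter were 51.2%, 8.89%, 27.7%, 31.3%, 1.37% and 6.33%. The members with an NRF1 core were Nup50, Nup62, Nup107 and Xpo5. These matches describe letters in a window and do not show that a factor binds.

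In the Y complex, the outer scaffold that starts pore assembly, 3 subunits were high in siEchs1 embryos at L2C. Nup85, an arm of the Y, was at 26.5, 17.5 and 23.8 FPKM in siCon E2C and 25.8, 18.9 and 17.9 in siCon L2C. In siEchs1 it was at 78.2, 94.2 and 46.9 FPKM at E2C and 126, 113 and 115 at L2C. All siEchs1 libraries were above all siCon libraries at either stage. The log2 change was 1.61 (SE 0.32, adjusted p = 0.00515) at E2C and 2.46 (SE 0.32, adjusted p = 0.000135) at L2C. Its E2C call was lost in the limma fit of the E2C libraries alone (adjusted p = 0.0513). Nup37 (chr10:88146992-88178390), a small subunit that sits on Nup160, was at 121, 88.8 and 119 FPKM in siCon E2C and 21.6, 20.4 and 16.0 in siCon L2C, without overlap. It was at 183, 131 and 81.3 FPKM in siEchs1 E2C and 70.7, 100.2 and 104.7 in siEchs1 L2C. The siCon L2C libraries lay below all others. It fell with stage in siCon by 2.44 (SE 0.34, adjusted p = 0.000105) and was 2.18 higher with siEchs1 at L2C (SE 0.34, adjusted p = 0.00033).

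Nup107, a stem subunit needed for pore assembly, was at 9.29, 4.43 and 7.30 FPKM in siCon E2C, 29.6, 40.5 and 12.6 in siEchs1 E2C, 14.5, 14.1 and 25.7 in siCon L2C and 38.9, 51.6 and 48.0 in siEchs1 L2C. The siEchs1 libraries lay above siCon at both stages, by 1.74 (SE 0.43, adjusted p = 0.0145) at E2C and 1.35 (SE 0.43, adjusted p = 0.0203) at L2C. The L2C call was lost when siCon L2C replicate 1 or 2 or siEchs1 L2C replicate 2 or 3 was left out (adjusted p from 0.0582 to 0.0695), and the E2C call without siCon E2C replicate 2 (0.066) or siEchs1 E2C replicate 2 (0.0649). Its rise of 1.25 with stage in siCon (adjusted p = 0.0277) was lost without siCon E2C replicate 2 (0.115) or 3 (0.0582) or siCon L2C replicate 3 (0.106), with no filter on low values (0.0585) and after quantile normalization (0.326). Nup160, the other arm of the Y, went the other way. It was at 21.5, 17.7 and 31.6 FPKM in siCon L2C against 7.42, 11.2 and 9.72 in siEchs1 L2C, all of them lower (-1.21, SE 0.30, adjusted p = 0.00582). The remaining subunits, Nup133 and Nup43, passed in none of the siRNA comparisons with all libraries, with log2 changes from 0.26 to 1.07 across the comparisons of siEchs1 with siCon and of L2C with E2C in siCon. Without siEchs1 E2C replicate 3, limma called both higher with siEchs1 at E2C. The changes were then 1.64 for Nup133 (adjusted p = 0.000975) and 1.98 for Nup43 (adjusted p = 0.000902). Since Nup43 lay below every siCon E2C library in replicate 3, leaving that library out could only raise its change.

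The inner ring, which anchors the channel to the membrane, was split as well. Nup155, a ring subunit that touches the membrane, was at 2.25, 2.83 and 1.85 FPKM in siCon E2C and 13.2, 13.8 and 19.0 in siCon L2C. In siEchs1 it was at 4.25, 3.20 and 3.68 FPKM at E2C and 1.92, 2.66 and 1.75 at L2C. Thus siCon L2C stood alone above the other groups, 2.30 above siCon E2C (SE 0.30, adjusted p = 6.52e-05) and 2.39 above siEchs1 L2C, whose log2 change was -2.39 (SE 0.30, adjusted p = 0.000109). Nup93 (chr8:94214564-94317227), the adaptor that holds the channel proteins, was at 6.04, 2.83 and 5.64 FPKM in siCon E2C, 21.3, 35.2 and 15.1 in siEchs1 E2C, 21.8, 12.4 and 23.9 in siCon L2C and 59.7, 48.3 and 51.5 in siEchs1 L2C. It was higher in every siEchs1 library than in any siCon library of the same stage. The log2 changes were 2.06 (SE 0.39, adjusted p = 0.00371) at E2C, 1.46 (SE 0.39, adjusted p = 0.008) at L2C and 1.80 with stage in siCon (SE 0.39, adjusted p = 0.002).

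Nup188, a large solenoid of the ring, was at 3.00, 2.71 and 4.17 FPKM in siCon E2C and 9.12, 20.2 and 24.8 in siEchs1 E2C, all above siCon (2.06, SE 0.37, adjusted p = 0.00318). At L2C the siCon libraries held 13.9, 17.7 and 19.5 FPKM of it and the siEchs1 libraries 25.6, 18.8 and 30.1. These overlap, and the difference did not pass (0.51, adjusted p = 0.28). Nup205, another large subunit of the ring, was at 4.58, 5.96 and 12.6 FPKM in siCon L2C and 1.51, 2.65 and 1.71 in siEchs1 L2C, the latter all lower (-1.47, SE 0.38, adjusted p = 0.00695). Nup35, which bends the membrane, passed in none of the siRNA comparisons with all libraries. Without siEchs1 E2C replicate 3, limma called it higher with siEchs1 at E2C (1.23, adjusted p = 0.00999).

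In the central channel, Nup54 and its partner Nup62, both with phenylalanine-glycine repeats, followed different courses. Nup54 was at 26.5, 24.8 and 32.1 FPKM in siCon E2C and 29.9, 16.0 and 21.9 in siCon L2C, against 53.8, 72.7 and 47.2 in siEchs1 E2C and 66.8, 73.1 and 73.7 in siEchs1 L2C. The siEchs1 libraries were above siCon at both stages, by 1.02 (SE 0.30, adjusted p = 0.0339) at E2C and 1.65 (SE 0.30, adjusted p = 0.000891) at L2C. The E2C call of Nup54 was lost with any of 7 libraries left out, siCon E2C replicates 1 to 3, siEchs1 E2C replicates 1 and 2 and siEchs1 L2C replicates 2 and 3 (adjusted p from 0.0507 to 0.126), with the replicate block (0.0619) and after quantile normalization (0.127). Nup62 was at 49.0, 43.1 and 46.3 FPKM in siCon E2C and 365, 292 and 198 in siCon L2C, a rise of 2.56 (SE 0.56, adjusted p = 0.00237). It was at 21.6, 35.0 and 157.1 FPKM in siEchs1 E2C, spread to both sides of siCon, and at 146, 100.3 and 106.5 in siEchs1 L2C, below every siCon L2C library without passing the test (-1.25, adjusted p = 0.0835).

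Nup62cl, a gene like Nup62 of less settled function, varied most within groups: 3.50, 13.1 and 30.6 FPKM in siCon E2C, 6.04, 24.6 and 11.5 in siEchs1 E2C, 115, 37.8 and 251 in siCon L2C and 23.5, 6.99 and 1.08 in siEchs1 L2C. It was lower in siEchs1 at L2C by the test (-3.82, SE 0.95, adjusted p = 0.00558). Its rise in siCon (3.05, SE 0.95, adjusted p = 0.0175) was lost without siCon E2C replicate 1 (0.0821) or siCon L2C replicate 3 (0.0822). Nup98, a repeat protein of the channel that also serves mRNA export, was at 77.2, 65.0 and 58.3 FPKM in siCon E2C, 126.5, 72.5 and 63.5 in siEchs1 E2C, 31.0, 33.1 and 47.03 in siCon L2C and 18.3, 29.1 and 29.2 in siEchs1 L2C. Both L2C groups were below both E2C groups, with a call in siEchs1 as given above and none in siCon (-0.85, adjusted p = 0.0541).

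On the nuclear side, Nup153, a basket protein that docks import complexes, was at 136, 133 and 109.8 FPKM in siCon E2C and 18.2, 21.9 and 19.0 in siCon L2C, a fall of 2.62 on the log2 scale (SE 0.45, adjusted p = 0.000467). In siEchs1 it was already at 24.3, 19.6 and 67.6 FPKM at E2C, all below siCon (-1.94, SE 0.45, adjusted p = 0.0111, and 0.0514 without siEchs1 E2C replicate 2). At L2C the siEchs1 libraries, at 7.45, 19.5 and 16.8 FPKM, overlapped siCon. Nup50, which helps importin alpha release cargo, moved the other way with stage, from 14.3, 20.2 and 19.0 FPKM in siCon E2C to 73.4, 82.9 and 68.2 in siCon L2C (2.02, SE 0.38, adjusted p = 0.000783). Its siEchs1 values were 19.1, 27.5 and 58.2 FPKM at E2C and 40.4, 57.6 and 52.9 at L2C, and neither difference from siCon passed.

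On the cytoplasmic side, Nup88, the partner of Nup214, was at 20.6, 12.2 and 13.7 FPKM in siCon E2C and 23.4, 15.9 and 18.9 in siCon L2C, against 37.4, 57.4 and 28.9 in siEchs1 E2C and 66.2, 64.6 and 60.2 in siEchs1 L2C. Every siEchs1 library was above every siCon library. The changes were 1.34 at E2C (SE 0.33, adjusted p = 0.0142) and 1.68 at L2C (SE 0.33, adjusted p = 0.00125), and the E2C call was lost without siCon E2C replicate 2 or 3 or siEchs1 E2C replicate 2 (adjusted p from 0.0585 to 0.0639). Ranbp2, the filament protein that binds Ran and attaches SUMO, was at 5.35, 6.36 and 4.33 FPKM in siCon E2C, 5.35, 3.76 and 4.0 in siEchs1 E2C, 5.51, 4.80 and 8.76 in siCon L2C and 0.74, 1.97 and 1.18 in siEchs1 L2C. The last group lay below all others, at -1.68 against siCon L2C (SE 0.33, adjusted p = 0.00143).

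The membrane-ring genes were near the floor. Nup210, a transmembrane pore protein, was too low for the test in either experiment, at 0 to 1.94 FPKM in the siRNA libraries and 0.26 to 1.48 in the treatment libraries. Nup210l, a related gene known from the testis, was at 0.82, 1.17 and 1.19 FPKM in siCon L2C and 0.17, 0.33 and 0.22 in siEchs1 L2C. The siEchs1 values were all lower (-0.73, SE 0.23, adjusted p = 0.0213), and the call was lost without siCon L2C replicate 2 or siEchs1 L2C replicate 1 or 3 (adjusted p from 0.0531 to 0.062) and after quantile normalization (-0.42, adjusted p = 0.187).

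**Figure D3:**
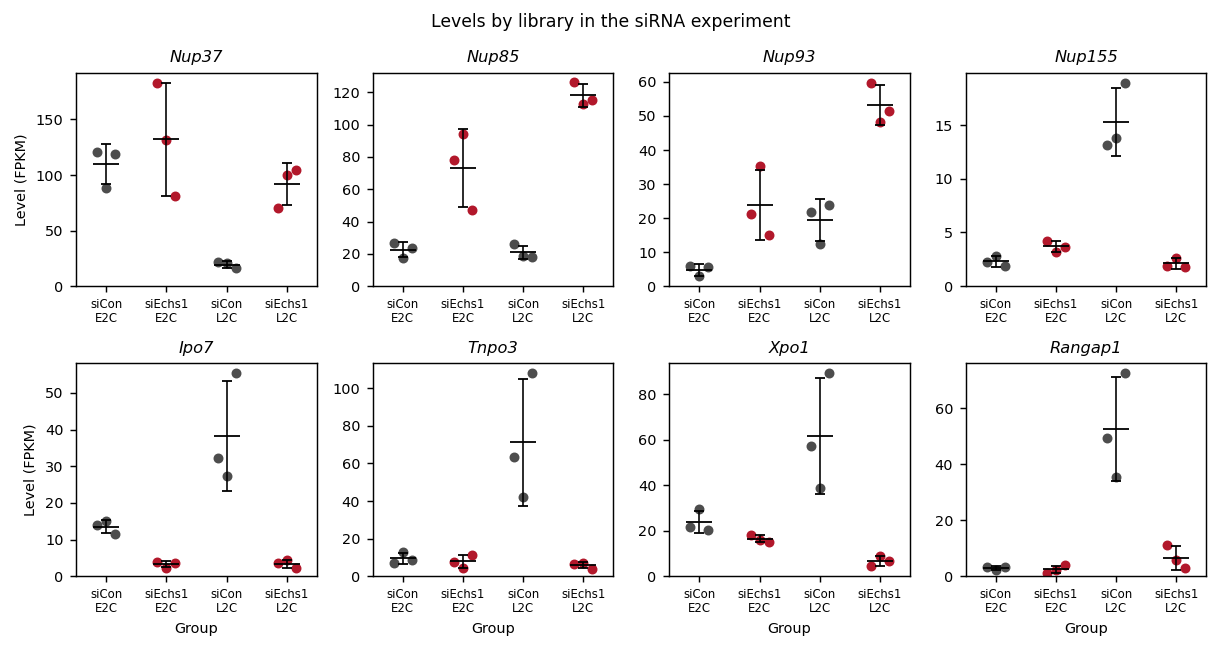
Level in FPKM (vertical axes, starting at 0) of 8 genes in the 4 groups of the siRNA experiment (horizontal axes); points are libraries, grey for siCon and red for siEchs1, and bars show the mean and 1 SD to either side (n = 3). Nup155, Ipo7, Tnpo3, Xpo1 and Rangap1 are high in siCon L2C alone, Nup37 is low there alone, and Nup85 and Nup93 are highest in siEchs1 L2C.

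Importin alpha genes encode the adaptors that recognise classical import signals, and they split by member. Kpna7 (chr5:144983519-145084030), the form known from oocytes and early embryos, was at 85.9, 67.9 and 69.2 FPKM in siCon E2C and 38.6, 48.4 and 23.2 in siCon L2C. In siEchs1 it was at 141, 193 and 147 FPKM at E2C and 348, 272 and 275 at L2C. It was thus lowest in siCon L2C and highest in siEchs1 L2C, with no overlap between any of the 4 groups. The log2 change with siEchs1 was 1.09 at E2C (SE 0.32, adjusted p = 0.0293) and 3.04 at L2C (SE 0.32, adjusted p = 5.66e-05), and these differed (1.95, SE 0.45, adjusted p = 0.015). With stage in siCon it fell by 1.05 (SE 0.32, adjusted p = 0.0151). The E2C call was lost without siCon E2C replicate 1, 2 or 3 or siEchs1 E2C replicate 2 (adjusted p from 0.0548 to 0.106) or after quantile normalization (0.0905), and the stage call without siCon E2C replicate 1 (0.0591) or siCon L2C replicate 3 (0.0544) or after rescaling (0.102).

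The other importin alpha genes did not share that course. Kpna1 was at 11.2, 14.2 and 14.1 FPKM in siCon E2C, 2.81, 3.08 and 9.23 in siEchs1 E2C, 40.4, 33.9 and 64.7 in siCon L2C and 1.88, 5.70 and 0.68 in siEchs1 L2C, where it was lower by the test (-3.84, SE 0.51, adjusted p = 0.000153). Kpna4 was at 1.41, 0.93 and 1.30 FPKM in siCon E2C, 2.60, 1.25 and 2.16 in siEchs1 E2C, 6.81, 14.9 and 8.31 in siCon L2C and 3.64, 2.67 and 1.07 in siEchs1 L2C. Both were highest in siCon L2C, and Kpna4 rose there by 2.25 (SE 0.39, adjusted p = 0.000464) and was lower in siEchs1 L2C (-1.68, SE 0.39, adjusted p = 0.00364). Kpna6 was at 2.62, 2.71 and 5.14 FPKM in siCon E2C, 4.37, 5.13 and 11.5 in siEchs1 E2C, 38.9, 29.9 and 50.2 in siCon L2C and 14.3, 13.4 and 13.1 in siEchs1 L2C. It rose with stage in siCon by 3.19 (SE 0.38, adjusted p = 3.42e-05) and was lower with siEchs1 at L2C (-1.45, SE 0.38, adjusted p = 0.00732). Kpna2, the most abundant member, showed no such order in the siRNA experiment: 250.5, 428 and 311 FPKM in siCon E2C, 263, 541 and 134 in siEchs1 E2C, 312, 272 and 596 in siCon L2C and 302, 592 and 498 in siEchs1 L2C. All 4 groups overlapped and no siRNA comparison passed for Kpna2 (log2 changes of -0.26 to 0.27 in the comparisons of siEchs1 with siCon and of L2C with E2C in siCon).

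**Figure D4:**
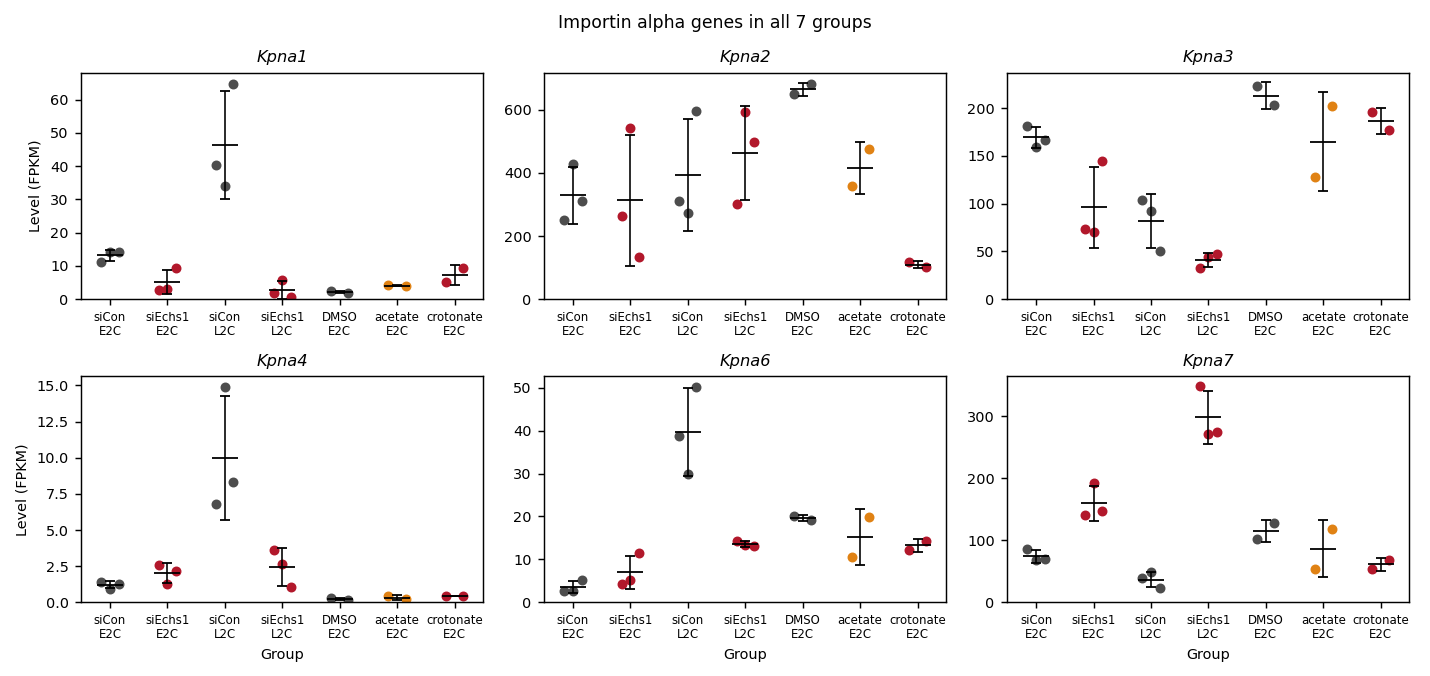
Level in FPKM (vertical axes, starting at 0) of the 6 importin alpha genes in all 7 groups (horizontal axes); points are libraries, bars show the mean and 1 SD to either side, n = 3 in the siRNA groups and n = 2 in the treatment groups, and the siRNA and treatment experiments were not compared. Kpna7 is highest in siEchs1 L2C, Kpna1, Kpna4 and Kpna6 are highest in siCon L2C, and Kpna2 with crotonate (118 and 101 FPKM) lies below DMSO (651 and 681) and acetate (359 and 475).

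In the importin beta family, the receptors that cross the pore, 10 of 11 genes rose with stage in siCon (6 of 11 after quantile normalization) and 7 of 11 were lower with siEchs1 at L2C. Ipo7 (chr7:110018274-110056609), a carrier of ribosomal proteins, was at 13.9, 15.0 and 11.6 FPKM in siCon E2C and 32.2, 27.2 and 55.4 in siCon L2C. In siEchs1 it was at 3.83, 2.36 and 3.69 FPKM at E2C and 3.52, 4.52 and 2.35 at L2C, below every siCon library of either stage. The log2 change with siEchs1 was -1.77 at E2C (SE 0.34, adjusted p = 0.00452) and -3.10 at L2C (SE 0.34, adjusted p = 7.01e-05). Tnpo3 (chr6:29540827-29609887), which imports splicing factors rich in serine and arginine, was at 6.84, 12.8 and 8.85 FPKM in siCon E2C, 7.85, 4.63 and 11.3 in siEchs1 E2C, 63.3, 42.2 and 108.0 in siCon L2C and 6.47, 6.99 and 3.98 in siEchs1 L2C. Again siCon L2C stood alone, 2.72 above siCon E2C (SE 0.42, adjusted p = 0.000212), and siEchs1 L2C was lower than it (-3.33, SE 0.42, adjusted p = 0.000112).

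Ipo4 and Ipo9 are carriers of histones. Ipo4 was at 6.31, 5.62 and 10.7 FPKM in siCon E2C, 18.6, 16.1 and 10.2 in siEchs1 E2C, 57.4, 51.1 and 114 in siCon L2C and 22.3, 14.3 and 15.5 in siEchs1 L2C. It rose with stage in siCon by 3.09 (SE 0.39, adjusted p = 5.43e-05) and was lower with siEchs1 at L2C (-1.97, SE 0.39, adjusted p = 0.00139). The siEchs1 L2C libraries lay between siCon E2C and siCon L2C, without overlap. Ipo9 was at 5.82, 5.34 and 3.70 FPKM in siCon E2C, 4.55, 7.75 and 11.3 in siEchs1 E2C, 27.1, 29.3 and 38.2 in siCon L2C and 13.2, 12.8 and 13.4 in siEchs1 L2C, with a rise of 2.45 in siCon (SE 0.34, adjusted p = 9.55e-05) and -1.19 with siEchs1 at L2C (adjusted p = 0.0113). Tnpo2, a close relative of the import receptor Tnpo1, was at 2.30, 0.87 and 2.47 FPKM in siCon E2C and 20.95, 13.7 and 22.0 in siCon L2C, a rise of 2.81 (SE 0.39, adjusted p = 0.000105). Its values were 2.44, 3.07 and 6.12 FPKM in siEchs1 E2C and 11.8, 7.96 and 6.76 in siEchs1 L2C, the latter lower than siCon L2C with little margin (-1.02, adjusted p = 0.0457). This call was lost under 11 of 18 settings, up to 0.145 without siEchs1 L2C replicate 3.

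Ipo11, the receptor of a ubiquitin-conjugating enzyme, was at 2.87, 3.11 and 3.08 FPKM in siCon E2C, 2.62, 2.61 and 1.01 in siEchs1 E2C, 14.4, 13.2 and 36.4 in siCon L2C and 1.84, 2.47 and 1.44 in siEchs1 L2C. It was low in every group but siCon L2C, with -2.80 for siEchs1 against siCon there (SE 0.40, adjusted p = 0.000217). Kpnb1, importin beta itself and the partner of importin alpha, moved less: 18.4, 12.6 and 10.4 FPKM in siCon E2C, 17.4, 21.1 and 25.1 in siEchs1 E2C, 33.3, 30.4 and 41.1 in siCon L2C and 23.7, 25.9 and 20.7 in siEchs1 L2C. Its rise of 1.30 in siCon passed (SE 0.30, adjusted p = 0.00324, and 0.093 after quantile normalization), and its difference with siEchs1 at L2C did not (-0.55, adjusted p = 0.147). Ipo5 was lower with siEchs1 at L2C as well (-2.39, adjusted p = 0.00104), and Ipo8, Ipo13 and Tnpo1 did not pass there (log2 changes of -0.59, -0.46 and 0.07).

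Among the exportins, Xpo1 (chr11:23256041-23298249), the receptor for leucine-rich export signals, was at 21.6, 29.6 and 20.5 FPKM in siCon E2C, 18.2, 16.2 and 15.2 in siEchs1 E2C, 57.1, 38.7 and 89.3 in siCon L2C and 4.65, 8.92 and 6.77 in siEchs1 L2C. The siCon L2C libraries were the highest and the siEchs1 L2C libraries the lowest, with no overlap between any of the 4 groups. It rose by 1.27 with stage in siCon (SE 0.35, adjusted p = 0.00971, and 0.106 after quantile normalization) and was 2.97 lower on the log2 scale with siEchs1 at L2C (a change of -2.97, SE 0.35, adjusted p = 9.13e-05). Xpot, the exportin of tRNA, was at 2.83, 4.12 and 0.92 FPKM in siCon E2C, 3.86, 2.56 and 10.0 in siEchs1 E2C, 10.5, 7.34 and 17.6 in siCon L2C and 1.61, 1.55 and 0.35 in siEchs1 L2C. It was lower with siEchs1 at L2C (-2.54, SE 0.52, adjusted p = 0.00162), and its rise of 1.85 in siCon (adjusted p = 0.00975) was lost without siCon E2C replicate 3 (0.0513). Xpo6, which exports actin, was at 25.8, 15.9 and 16.8 FPKM in siCon E2C, 22.0, 29.1 and 93.8 in siEchs1 E2C, 45.3, 69.8 and 49.9 in siCon L2C and 14.9, 15.8 and 12.9 in siEchs1 L2C, the last below all siCon L2C libraries (-1.83, SE 0.46, adjusted p = 0.0059).

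Xpo5, the exportin of microRNA precursors, was the exportin called at E2C with all libraries. It was at 3.62, 1.94 and 2.81 FPKM in siCon E2C and 10.6, 15.2 and 7.01 in siEchs1 E2C, all higher (1.62, SE 0.36, adjusted p = 0.00862). A limma fit of the E2C libraries alone lost this call of Xpo5 (adjusted p = 0.054). At L2C the siCon libraries held 4.17, 7.91 and 4.96 FPKM of it and the siEchs1 libraries 9.28, 10.1 and 7.40, which overlap (0.60, adjusted p = 0.179). Xpo7, a receptor with a broad range of cargo, was at 8.83, 7.60 and 9.01 FPKM in siCon E2C, 2.50, 3.16 and 8.73 in siEchs1 E2C, 25.5, 24.6 and 17.8 in siCon L2C and 9.70, 9.55 and 7.56 in siEchs1 L2C. Without siEchs1 E2C replicate 3, limma called Xpo7 lower with siEchs1 at E2C (-1.31, adjusted p = 0.0033). It was highest in siCon L2C, by 1.30 over siCon E2C (adjusted p = 0.0121, and 0.186 after quantile normalization). Its L2C difference with siEchs1 (-1.24, adjusted p = 0.0163) was lost without siCon L2C replicate 1 or 2 or siEchs1 L2C replicate 3 (adjusted p from 0.0501 to 0.0594).

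In the Ran cycle, Rangap1 (chr15:81704248-81745530), which makes Ran hydrolyse GTP in the cytoplasm, had the largest rise with stage of all members in siCon. It was at 3.26, 2.26 and 3.33 FPKM in siCon E2C and 49.6, 35.6 and 72.5 in siCon L2C, a log2 change of 3.72 (SE 0.45, adjusted p = 4.12e-05). In siEchs1 it was at 1.23, 2.25 and 3.88 FPKM at E2C and 11.3, 5.70 and 2.95 at L2C, the latter below siCon L2C without overlap (-2.90, SE 0.45, adjusted p = 0.000323). Ran itself was at 88.3, 84.4 and 100.5 FPKM in siCon E2C, 147, 96.6 and 57.8 in siEchs1 E2C, 89.1, 63.7 and 71.5 in siCon L2C and 83.1, 80.3 and 67.3 in siEchs1 L2C. Ranbp1, which helps Rangap1 act on Ran, was at 42.7, 46.5 and 49.1 FPKM in siCon E2C, 72.8, 72.1 and 33.3 in siEchs1 E2C, 44.8, 63.3 and 42.3 in siCon L2C and 58.2, 88.7 and 65.0 in siEchs1 L2C. Neither gene passed in any siRNA comparison, and the siCon and siEchs1 libraries of Ran overlapped at both stages.

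Some of these values can hold fragments of a neighbour, since the values keep no strand. Exons of 17 members overlap those of another gene in the GENCODE M21 annotation, 12 of them a protein-coding gene. Shared stretches included 428 nt of Ipo4 with Gm49378, 251 nt of Tnpo3 with Irf5, 88 and 82 nt of Nup62 with Il4i1 and Atf5, 65 nt of Rangap1 with Zc3h7b and 50 nt of Kpna7 with Arpc1a.

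In the treatment experiment a single member passed. Kpna2 (chr11:106988629-106999541), the highest member with DMSO, was at 651 and 681 FPKM with DMSO, 359 and 475 with acetate and 118 and 101 with crotonate. The 3 groups did not overlap, with DMSO the highest and crotonate the lowest. Crotonate against DMSO gave a log2 change of -2.59 (SE 0.27, adjusted p = 0.0188) and crotonate against acetate -1.91 (SE 0.27, adjusted p = 0.0308), and acetate against DMSO did not pass (-0.69, adjusted p = 0.784). Both calls were lost when either DMSO or either crotonate library was left out, with adjusted p from 0.103 to 0.257 against DMSO and from 0.0735 to 0.361 against acetate. They were also lost with no filter on low values (0.121 and 0.18).

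Counted over the 44 members tested there, crotonate against DMSO gave 0 higher and 1 lower, against 0.21% and 0.319% of all 13789 genes, and at an unadjusted p under 0.05 limma gave 2 and 7. The median member changed by -0.35 and the median gene by -0.15, and the sign was negative in 37 of 44 members and in 60.9% of all genes. With these 4 libraries alone, or without acetate replicate 1 or 2, 6 members were lower. Acetate against DMSO gave 0 and 0, against 0.00725% and 0.058% of all genes, and 0 and 3 at an unadjusted p under 0.05. Without acetate replicate 2 that count was 8 lower, all resting on acetate replicate 1, in which 20.6% of the total was mitochondrial against 11.9% in replicate 2. Mitochondrial transcripts made up 12.2 to 13.4% of the total with DMSO and 16.7 to 19.8% with crotonate. Crotonate against acetate gave 0 and 1, against 1.02% and 0.841%, and 1 and 7 unadjusted. That single lower call became 0 when these libraries were fitted alone or when a DMSO or crotonate library was left out, 5 without acetate replicate 1, and 3 lower with 3 higher without acetate replicate 2. The comparisons share libraries, and with no dose in the labels it cannot be told whether acetate and crotonate were given at matched doses.

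Other members had large log2 differences with crotonate that did not pass. Nup107 was at 48.5 and 42.3 FPKM with DMSO, 8.90 and 44.9 with acetate and 6.40 and 3.85 with crotonate (-2.95 against DMSO, SE 0.66, adjusted p = 0.0933). Nup93 was at 26.5 and 28.2 FPKM with DMSO, 9.80 and 40.1 with acetate and 6.43 and 5.30 with crotonate (-2.05, SE 0.58, adjusted p = 0.139). In both, the crotonate libraries were below all others and acetate replicate 1 lay near them. The inner-ring and Y-complex genes were negative against DMSO in all 10 tested members, beside 37 of 44 members and 60.9% of all genes. None of the 10 passed. Their medians were -0.82 and -1.14, and the sign of neither turned after quantile normalization (-0.57 and -0.88). Ran (30.9 and 33.4 FPKM with DMSO, 64.2 and 36.2 with acetate, 22.8 and 22.9 with crotonate) and Xpo1 (8.04 and 9.81, 4.70 and 8.98, 8.74 and 10.1) did not pass, nor did Kpna7 (102.5 and 128, 53.9 and 119, 53.6 and 68.7) or Kpnb1 (4.22 and 5.61, 4.64 and 6.53, 3.03 and 3.13). Rangap1, Ranbp1, Ranbp2, Nup62 and Nup98 showed adjusted p of 0.55 or more against DMSO with either compound.

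Related genes outside the symbol rule, 65 in 4 lists of which 60 were tested, were counted beside the members. With siEchs1, 12 were higher and 17 lower at L2C (20% and 28.33%), near the 21.9% and 26.9% of all genes. At E2C, 9 were higher and 6 lower (15% and 10%, against 11% and 9.31% of all genes). For L2C against E2C in siCon, 29 were higher and 9 lower (48.33% and 15%, against 35.8% and 14.4%). Of 10 other pore genes, 2 were higher and 5 lower with siEchs1 at L2C (20% and 50%, against 21.9% and 26.9% of all genes). The 2 higher ones were Rae1, an mRNA export factor (2.19, adjusted p = 0.000229), and Sec13 of the Y complex (2.14, adjusted p = 0.00048). Of 11 other receptors and Ran-cycle factors, 3 rose and 2 fell with stage in siCon (27.27% and 18.18%, against 35.8% and 14.4%). Rcc1, the nuclear exchange factor of Ran, was first by adjusted p (4.53, SE 0.41, adjusted p = 8.43e-06). With siEchs1, Rcc1 was 1.42 higher at E2C (adjusted p = 0.0296), and the 1 call of that list at L2C was Ranbp10 (-1.60, adjusted p = 0.0151).

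In the mRNA export list of 25 genes, 6 were higher and 5 lower with siEchs1 at L2C (24% and 20%, against 21.9% and 26.9% of all genes). By adjusted p the first were the helicase Ddx39 (-2.67, adjusted p = 9.57e-05) and Poldip3 (-2.22, adjusted p = 0.000234). With stage in siCon 12 rose and 5 fell (48% and 20%, against 35.8% and 14.4%), Poldip3 by 4.12 (adjusted p = 3.84e-06) and the adaptor Alyref by 5.12 (adjusted p = 9.74e-06). In the lamina and envelope list, 14 tested genes, 4 were higher and 6 lower with siEchs1 at L2C (28.57% and 42.86%), and 9 rose and 1 fell with stage in siCon (64.29% and 7.143%), beside the same shares of all genes. First by adjusted p were Tor1aip2 (-3.03, adjusted p = 9.32e-05) and Lemd3 (-2.49, adjusted p = 0.000111) at L2C, and the lamins Lmnb1 (4.10, adjusted p = 9.75e-06) and Lmna (3.26, adjusted p = 1.2e-05) with stage. Over the 3 treatment comparisons, 1 of 57 tested genes was called, Mcm3ap of the export machinery. It was lower with crotonate than with acetate (-2.16, adjusted p = 0.041), which makes 1.754% lower there against 0.841% of all genes. The other settings were followed for members only, so the stability of this call is not given.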

How the data were processed

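Per the labels' protocols, both ends of each fragment were read over 150 nt. The submitters' processing notes name cutadapt 1.16, STAR and the build mm10. Which program, annotation and strand setting made the values is not given in the sources used here. Each library has 1 table of 55335 genes in FPKM, as the authors deposited it, with no counts and no strand. Groups came from the titles; for siEchs1 L2C replicates 2 and 3 titles and file headers disagree on the number, and titles were used. Genes with repeated symbols (212 entries) or symbols turned into dates (25) were left out.

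FPKM was analysed as log2(FPKM + 1), a scale that understates changes of low genes. Genes that reached 1 FPKM in 3 or more of 12 siRNA libraries (17652) or in 2 or more of 6 treatment libraries (13789) were tested by the robust trend fit of limma (limma 3.58.1, R 4.3.3), 1 fit per experiment with group means, two-sided, Benjamini-Hochberg adjusted over all genes of a comparison and called under 0.05. This passed 47 and 44 of 48 members; Nup210 failed in both, and Kpna4, Nup133 and Nup210l in the treatment experiment. Tests were checked on simulated data with independent noise and large changes. Those data held no outlying library and no difference in scaling, so the check does not cover such cases. Low values stepped in whole fragments in 37.9 to 49.3% of cases at the best scanned depth (30% by chance within 0.15), so counts were not recovered.

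Values in every library are given for Ran, Rangap1, Ranbp1, Ranbp2, Kpna2, Kpna7, Kpnb1, Xpo1, Nup98, Nup107, Nup62 and Nup210 and for up to 3 called members per role and comparison with the smallest adjusted p; others named by value were chosen after seeing them. Members, lists and promoters were chosen with earlier results of these data known. Of member IDs, 46 of 48 matched GENCODE M21 (GRCm38), which gave gene positions.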

Additional observations from a re-analysis of the deposited data

Results flagged for a closer look

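For 17 members the siEchs1 effect differed between the stages by limma's test of the difference (adjusted p under 0.05), given here as the log2 effect at L2C minus that at E2C. It was negative for Xpot (-3.32), Tnpo3 (-3.07), Nup155 (-2.9), Ipo4 (-2.88), Xpo6 (-2.84), Rangap1 (-2.65), Ipo5 (-2.5), Xpo1 (-2.48), Kpna1 (-2.46), Ipo11 (-2.37), Kpna6 (-2.22), Nup205 (-2.17), Kpna4 (-2.1), Tnpo2 (-1.76) and Ipo9 (-1.7). It was positive for Nup37 (1.98) and Kpna7 (1.95). Of these, Ipo4, Kpna6, Kpna7, Nup155, Rangap1, Tnpo3, Xpo1, Xpo6 and Xpot, 9 of the 17, were called under each of the 18 other settings. The siEchs1 E2C libraries enter every one of these differences, and replicate 3 of that group stood apart from its companions. The calls of Tnpo2, Kpna1 and Ipo9 were the least stable, lost under 13, 10 and 9 of those settings. Without siEchs1 L2C replicate 3, Ipo11 (adjusted p = 0.0517), Nup37 (0.0539), Nup205 (0.0527), Ipo5 (0.0589) and Kpna4 (0.0646) did not pass.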

How the results depend on the processing

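No called member turned its direction under any setting tried. Compared libraries fitted alone gave 2 higher and 1 lower members for siEchs1 at E2C, 0 lower for L2C against E2C in siEchs1, 6 lower for crotonate against DMSO and 0 lower for crotonate against acetate. Quantile normalization gave 15 higher and 8 lower for L2C against E2C in siCon, and rescaling without mitochondrial and ribosomal RNA gave 2 lower there and 1 higher in siEchs1. With no filter on low values, 0 members were lower with crotonate against DMSO or acetate. The cause was not tested. With 1 library left out, members higher and lower ranged from 4 to 12 and 1 to 5 for siEchs1 at E2C, from 1 to 3 and 8 to 18 for the difference of effects, from 22 to 29 and 2 to 5 for L2C against E2C in siCon, and from 0 to 8 and 1 to 5 in siEchs1. In the treatment experiment these ranges were 0 and 0 to 6 for crotonate against DMSO, 0 and 0 to 8 for acetate against DMSO, and 0 to 3 and 0 to 5 for crotonate against acetate. For siEchs1 at L2C they were 6 to 7 and 18 to 24. Where a group was left with 1 library, that library was assumed to vary like the others.

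Scaling moved the split of all called genes. For L2C against E2C in siCon it was 6326 higher and 2544 lower, 4192 and 4243 after quantile normalization; for siEchs1 at E2C 1934 and 1644, 2696 and 1206 after rescaling; for the difference of effects 997 and 2042, 1600 and 1558 after quantile normalization. A replicate block in the fit gave 7 higher and 2 lower for siEchs1 at E2C and moved no count of members by over 1.5 times. By title number, same-numbered siRNA libraries did not deviate together (correlations from -0.0933 to 0.103). The siEchs1 L2C libraries whose titles and file headers disagree can also be exchanged. Their same-numbered correlations are then 0.078 and 0.214 with siCon L2C, -0.0542 and 0.0256 with siCon E2C and -0.0607 and 0.0384 with siEchs1 E2C. Since it is unknown which numbers are right, the check cannot decide whether libraries were paired. The replicate block used the title numbers too. Depth is unknown, which limits members under a few FPKM most.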
